A study of Homo sapiens with 4 samples.

Results

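The 8 genes described here are parts of the RAS to ERK signalling pathway and were listed by symbol: HRAS and NRAS, which encode RAS GTPases, the RAF kinase gene BRAF, and DUSP6, SPRY2, SPRY4, ETV4 and ETV5, which ERK signalling induces. A member was measured if a probe set of the deposited table had it as its single gene symbol in the platform annotation. That held for 6 of the 8, among 17687 genes and 21448 probe sets in all, and each of the 6 had 1 probe set. NRAS and BRAF are not analysed here, so HRAS alone stands for the RAS and RAF genes, beside all 5 ERK-induced genes.

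The RNA came from A549, a human cell line established from a lung adenocarcinoma. A short hairpin RNA had depleted it of LDOC1, a leucine zipper protein. All 4 arrays carry that hairpin (shLDOC1). The group labelled A549-shLDOC1-H2BK120R (2 arrays) also expressed the mutant histone H2BK120R, in which the lysine of H2B that takes up a single ubiquitin is replaced by arginine, and the group labelled A549-shLDOC1-V (2 arrays) carried the vector. The design text states that LDOC1 depletion raised ubiquitylated H2B (H2Bub1) and that the mutant lowered it, so the comparison asks what differs in depleted cells when the mark is reduced. Both lines grew in serum-containing high-glucose medium with penicillin, streptomycin and 5 µg/mL puromycin, and RNA was taken above 90% confluency. Cells with an unmutated H2B construct or with intact LDOC1 were not analysed here, so an effect of the mutation cannot be told apart from one of added histone. The labels do not say whether the lines are clones or whether the replicates are separate cultures. The p-values therefore rest only on variation among these 4 arrays, shared across probe sets, and that variation may be technical.

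Growth factor receptors load RAS proteins with GTP, and active RAS recruits RAF kinases to the membrane, where they start the relay from MEK to ERK. ERK then phosphorylates transcription factors, and among the genes this induces are several that act back on the pathway. DUSP6 encodes a phosphatase that removes the activating phosphates from ERK in the cytoplasm, and SPRY2 and SPRY4 encode Sprouty proteins that restrain signalling between receptor and RAF. ETV4 and ETV5 encode ETS-family transcription factors. Transcripts of such genes are widely used as a readout of ERK output, although they do not measure ERK phosphorylation itself.

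Each array gave a log2 level per probe set, with array medians between 6.40 and 6.43. LDOC1 itself was at 8.37 and 8.66 in the cells with H2BK120R and at 8.0 and 8.33 in the vector cells, which does not test the depletion because both groups carry the hairpin. Of the 8 measured A549 and epithelial markers, 7 lay at 10.55 or above on every array, among them KRT8, KRT18, ALDH1A1 and AKR1C2, while EPCAM lay between 5.16 and 5.76, below the median level of all probe sets. The 4 measured leukocyte markers ranged from 2.94 to 5.63, the 4 endothelial markers from 2.29 to 6.26 and the 4 fibroblast markers from 3.62 to 8.41, the highest being COL1A2. CDH1, the epithelial cadherin gene, was the 1 marker of these lists with an unadjusted p under 0.05 in limma (difference 0.60, adjusted p = 0.650). Of all probe sets, 6.70% had such an unadjusted p. The part of CDH1 in the results below was not tested.

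None of the 6 genes differed between H2BK120R and vector at the thresholds of the test used. Its standard errors combine a gene's own spread (2 residual degrees of freedom) with that of probe sets of similar level (8.95 prior degrees of freedom). They can thus exceed the spread of the gene's own arrays. For SPRY4, the SDs were 0.08 with H2BK120R and 0.02 with the vector, and the limma standard error was 0.20. All 5 ERK-induced genes had a lower mean with H2BK120R, by between 0.02 and 0.29 on the log2 scale, and the mean of HRAS was the same in both groups. RNA of whole cultures was measured, so fewer cells expressing a gene and less RNA per cell cannot be told apart. The limma test, whose p-values were Benjamini-Hochberg adjusted across the whole table, called 0 of the 6 at an adjusted p of 0.05, where 0% of all probe sets were called and the smallest adjusted p of any was 0.492. At an unadjusted p under 0.05 it also called 0 of the 6, against 6.70% of all probe sets (1437 of 21448), of which 3.62% were higher and 3.08% lower. The groups did not overlap for 3 of the 6, against 36.5% of all probe sets. These were DUSP6, SPRY4 and ETV5, each lower on the H2BK120R arrays, where 17.9% of all probe sets were lower in that way and 18.6% higher.

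**Figure D1:**
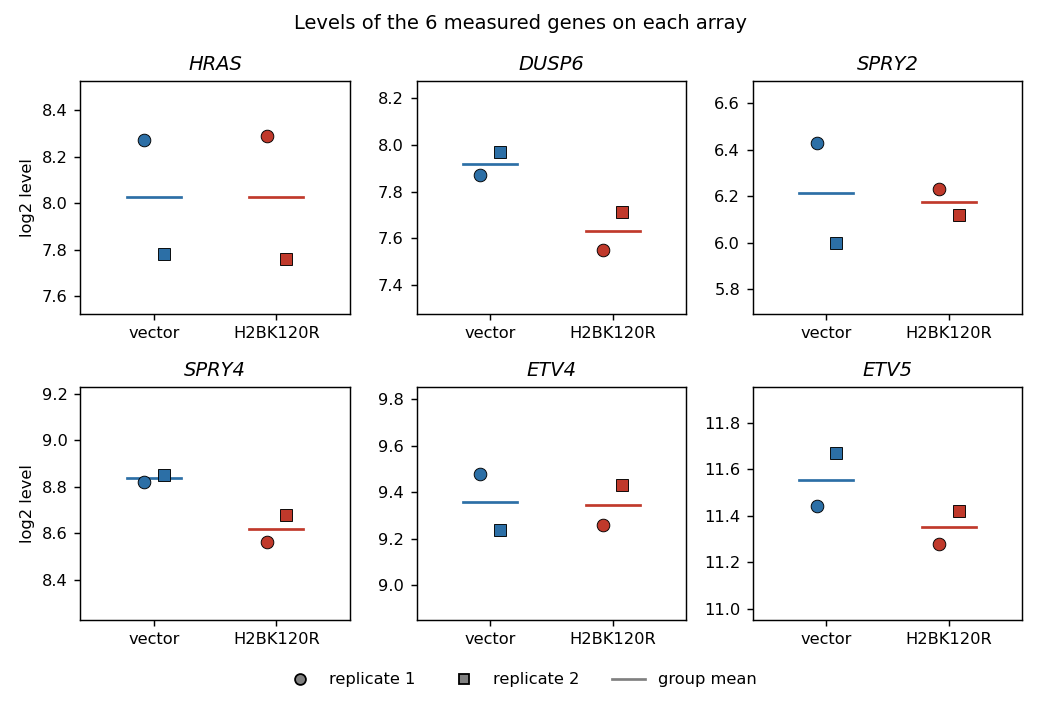
Log2 level of each of the 6 measured genes on each array (circles, replicate 1; squares, replicate 2; horizontal lines, means of 2 arrays), with every panel spanning the same range. The groups are apart for DUSP6, SPRY4 and ETV5 and overlap for HRAS, SPRY2 and ETV4.

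HRAS encodes a membrane-anchored RAS GTPase at the head of the pathway. Its probe set (TC1100009678.hg.1) read 8.29 and 7.76 in replicates 1 and 2 with H2BK120R and 8.27 and 7.78 in replicates 1 and 2 with the vector. The groups overlapped fully, and the replicates of a group lay 0.53 and 0.49 apart. Each array of one group thus had a near match in the other with the same replicate number, and the number-1 arrays averaged 0.51 above the number-2 arrays. The group means were 8.03 ± 0.37 and 8.03 ± 0.35 (SD, n = 2 each). The difference was 0.00 with a limma standard error of 0.27 and a 95% confidence interval from -0.59 to 0.59, so a change of up to 1.5-fold either way is inside the interval.

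DUSP6 had the largest difference of the 6 genes. Its probe set (TC1200011470.hg.1) read 7.55 and 7.71 with H2BK120R and 7.87 and 7.97 with the vector. The groups did not overlap, with 0.16 between the highest array of one and the lowest of the other, which equals the range within the H2BK120R pair. The means were 7.63 ± 0.11 and 7.92 ± 0.07 (SD, n = 2 each). The difference of -0.29 ± 0.23 (SE) corresponds to 0.818-fold, with a 95% confidence interval from 0.577-fold to 1.16-fold and a limma adjusted p of 0.828.

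The Sprouty genes SPRY2 and SPRY4 encode inhibitors of receptor tyrosine kinase signalling with a shared cysteine-rich domain. SPRY4 (TC0500012312.hg.1) read 8.56 and 8.68 with H2BK120R and 8.82 and 8.85 with the vector. The groups were 0.14 apart, and the vector arrays were within 0.03 of each other. The difference was -0.22 ± 0.20 (SE), with a 95% confidence interval from -0.65 to 0.22 and a limma adjusted p of 0.853. SPRY2 (TC1300009348.hg.1) read 6.23 and 6.12 with H2BK120R and 6.43 and 6.0 with the vector. Both arrays with H2BK120R fell inside the vector range of 0.43, so the groups overlapped. Its difference was -0.04 ± 0.29 (SE), with a limma adjusted p of 0.985 and a 95% confidence interval from -0.68 to 0.60. It turned to 0.02 without H2BK120R replicate 2 and to 0.18 without vector replicate 1. SPRY2 was the 1 member with a mean level (6.20) below the median of all probe sets (6.41), and its interval was the widest of the 6.

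ETV4 and ETV5 belong, with ETV1, to the PEA3 group of ETS factors. ETV5 (TC0300014082.hg.1) read 11.28 and 11.42 with H2BK120R and 11.44 and 11.67 with the vector. The groups did not overlap, but only 0.02 separated replicate 2 with H2BK120R from replicate 1 with the vector. The means were 11.35 ± 0.10 and 11.56 ± 0.16 (SD, n = 2 each), and the difference was -0.21 ± 0.15 (SE), with a 95% confidence interval from -0.54 to 0.13. ETV5 had the smallest unadjusted p of the 6 genes, 0.206, and a limma adjusted p of 0.817. Without vector replicate 2 the difference was -0.09 and without vector replicate 1 it was -0.32.

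ETV4 (TC1700010790.hg.1) read 9.26 and 9.43 with H2BK120R and 9.48 and 9.24 with the vector. The H2BK120R arrays lay inside the vector range, so the groups overlapped. The difference was -0.02 ± 0.19 (SE), with a limma adjusted p of 0.990 and a 95% confidence interval from -0.44 to 0.41. It was 0.07 without H2BK120R replicate 1 and 0.11 without vector replicate 1. ETV1, the remaining gene of the group, read 10.19 and 9.91 with H2BK120R and 10.06 and 9.58 with the vector, and these groups overlapped too (difference 0.23 ± 0.21, limma adjusted p = 0.850).

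**Figure D2:**
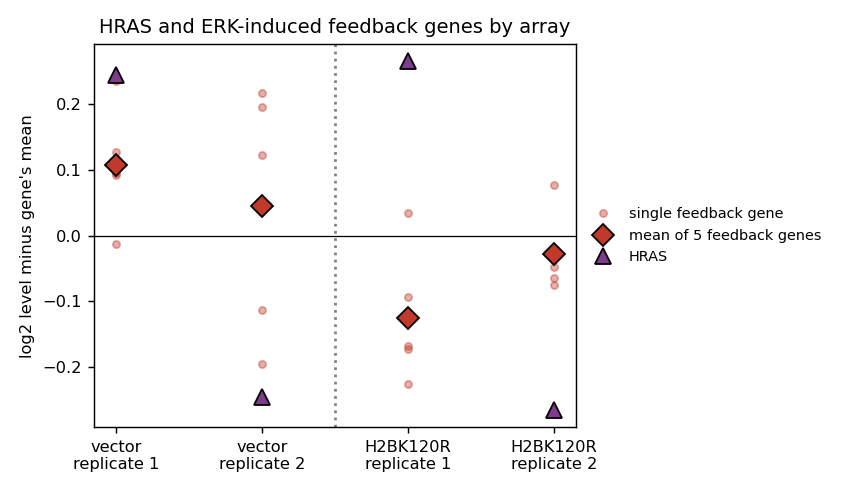
Deviation of each array from a gene's mean over the 4 arrays, in log2 units, for HRAS (triangles), each of the 5 ERK-induced genes (small circles) and their mean (diamonds). The diamonds are at 0.11 and 0.05 on the vector arrays and at -0.12 and -0.03 on the H2BK120R arrays, and HRAS differs by replicate number.

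Set against each other as classes, the ERK-induced genes averaged a difference of -0.15 on the log2 scale, or 10.1% lower, and HRAS one of 0.00. Averaged over the 5 genes, the deviation from each gene's own mean was -0.12 and -0.03 on the H2BK120R arrays and 0.11 and 0.05 on the vector arrays. The corresponding deviations of HRAS were 0.27 and -0.27 with H2BK120R and 0.25 and -0.25 with the vector. The ERK-induced mean minus HRAS was therefore -0.39 and 0.24 with H2BK120R and -0.14 and 0.29 with the vector, and the groups overlapped. No test is given for these averages, since the genes were listed with earlier results of these data known and only HRAS represents its class.

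**Figure D3:**
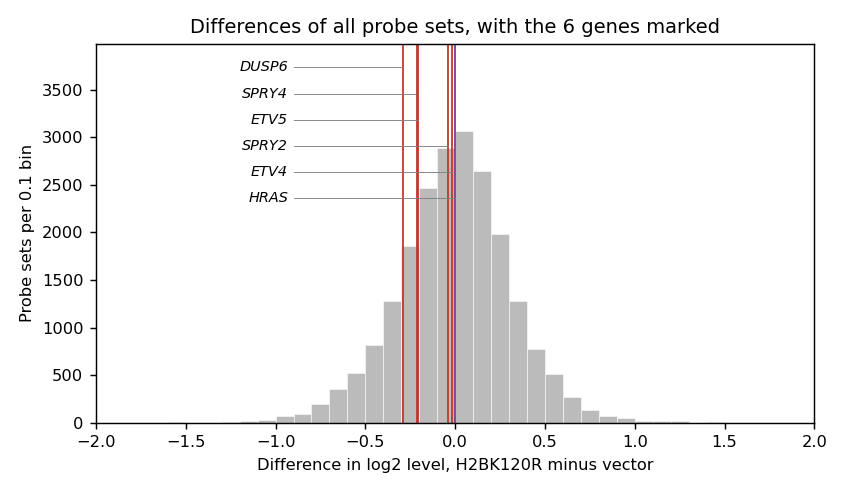
Number of probe sets per 0.1 bin of the log2 difference, H2BK120R minus vector, over all 21448 probe sets, with vertical lines at the 6 measured genes (HRAS purple, ERK-induced genes red). All 6 lines lie in the central part of the distribution, at or below 0.

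The 6 differences lay within the central 90% of those of all probe sets, which ran from -0.54 to 0.51. The difference of DUSP6 was undercut by 16.5% of probe sets, that of SPRY4 by 23.0% and that of ETV5 by 23.9%. The median difference was -0.21 for the 5 ERK-induced genes and 0.00 for all probe sets. The gene-centred pattern of ETV5, the member with the smallest p, was nearest to those of FZD5, DYNLL2 and ASB6, at a root mean square distance of 0.013 each over the 4 arrays. Among 9297 genes at or above the median level, 96 were within 0.05 of it.

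Start-site sequences are shown for HRAS, whose groups coincided, for DUSP6 and SPRY4, whose groups were apart, and for SPRY2, the Sprouty gene whose groups overlapped, so that genes that read differently can be compared. RefSeq tables for GRCh38.p14 held 4 of the 6 measured members. The 250 bases before the annotated start are given 5′ to 3′ on the coding strand, which is the minus strand for all 4 genes. They lie at chr11:535577-535826 for HRAS, chr12:89352502-89352751 for DUSP6, chr5:142324248-142324497 for SPRY4 and chr13:80341127-80341376 for the first of 3 listed SPRY2 starts. Capitals mark GGAAG, a sequence bound by ETS factors such as ETV4 and ETV5, and GGGCGG, the GC box bound by SP1, on either strand. GGAA without the final G is left in lower case, as in SPRY4, so a window without GGAAG may still hold other ETS sequences.
HRAS: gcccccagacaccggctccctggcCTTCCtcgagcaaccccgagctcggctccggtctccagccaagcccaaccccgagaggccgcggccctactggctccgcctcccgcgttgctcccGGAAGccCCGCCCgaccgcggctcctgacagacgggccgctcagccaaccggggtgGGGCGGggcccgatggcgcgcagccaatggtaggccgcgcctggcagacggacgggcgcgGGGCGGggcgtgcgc
DUSP6: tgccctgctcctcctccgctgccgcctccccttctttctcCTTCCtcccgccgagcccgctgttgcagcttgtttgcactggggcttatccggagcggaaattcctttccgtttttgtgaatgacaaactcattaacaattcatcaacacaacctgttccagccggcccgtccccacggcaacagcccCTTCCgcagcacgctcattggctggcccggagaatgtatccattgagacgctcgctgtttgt
SPRY4: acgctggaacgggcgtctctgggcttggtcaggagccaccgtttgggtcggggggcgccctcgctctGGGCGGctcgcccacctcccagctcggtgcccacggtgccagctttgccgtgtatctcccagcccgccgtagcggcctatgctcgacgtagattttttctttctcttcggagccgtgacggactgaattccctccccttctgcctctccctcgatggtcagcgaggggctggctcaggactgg
SPRY2: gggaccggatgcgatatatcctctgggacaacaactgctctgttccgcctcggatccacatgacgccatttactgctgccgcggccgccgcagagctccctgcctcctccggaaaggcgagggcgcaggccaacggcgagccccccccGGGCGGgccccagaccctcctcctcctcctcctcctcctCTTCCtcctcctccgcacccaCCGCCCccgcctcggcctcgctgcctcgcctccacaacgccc

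DUSP6 held 2 matches to GGAAG and 0 to GGGCGG, SPRY4 held 0 and 1, SPRY2 held 1 and 2 at this start, and HRAS held 2 and 3. GGAAG was present on either strand in 65.1% of all 35116 windows of the same length, and GGGCGG in 42.6%. The longer ETS sequence CCGGAA, which can overlap GGAAG, was found once in HRAS, at positions -133 to -128 from the start, and once in SPRY2, and in 14.5% of all windows. The AP-1 sequence TGACTCA and the TATA sequence TATAAA were found in 0 of these 4 windows, against 4.20% and 10.7% of all. The G and C content was 77.2% in HRAS, 57.2% in DUSP6, 65.6% in SPRY4 and 70.4% in SPRY2. A match describes letters in a window and is not a measured binding site.

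The other genes of the pathway were taken from lists ordered by role, and none passed an adjusted p of 0.05. As background for the genes named from these lists, 6.70% of all probe sets had an unadjusted p under 0.05 in limma. The groups did not overlap for 36.5% of all probe sets. RAS GTPases related to HRAS and further kinases of the RAF family had 6 measured genes, 3 higher and 3 lower with H2BK120R, with a median of -0.04. The groups were apart for 2 higher genes, RRAS among them, and for 2 lower genes, ARAF and RRAS2. RRAS, a RAS-related GTPase known for its role in integrin-mediated adhesion, read 10.02 and 10.76 with H2BK120R and 9.72 and 9.50 with the vector. Its groups did not overlap and the difference was 0.78 ± 0.23 (SE), with an unadjusted p of 0.00684 and a limma adjusted p of 0.690. It was 0.41 when H2BK120R replicate 2 was left out, where the unadjusted p was 0.138, and 1.15 when replicate 1 was. The unadjusted p of RRAS was also 0.0509 without vector replicate 1 and 0.109 without vector replicate 2. The RAF kinase gene ARAF read 13.00 and 12.94 with H2BK120R against 13.31 and 13.14 (difference -0.26 ± 0.13), and RRAS2 differed by -0.33 ± 0.19, with the groups apart for both. MRAS, the other gene named from this list by its p, differed by -0.37 ± 0.32, with overlapping groups.

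Between receptor and RAS, 9 exchange factor and adaptor genes were measured, 6 higher and 3 lower, with a median of 0.02 and 0 at an unadjusted p under 0.05. SOS1, an exchange factor that loads RAS with GTP, read 12.22 and 12.45 with H2BK120R and 12.14 and 12.12 with the vector, without overlap (difference 0.21 ± 0.14). Its partner adaptor GRB2 differed by -0.11 ± 0.12, SOS2 by 0.09 ± 0.18 and the exchange factor RASGRP3 by 0.45 ± 0.35. The RASGRP3 value was 0.02 without H2BK120R replicate 2 and 0.87 without replicate 1 of that group. Among the GTPase-activating proteins, which switch RAS off, 5 were measured, 3 higher and 2 lower, with a median of 0.21 and again 0 at an unadjusted p under 0.05. RASA3 read 9.33 and 9.36 with H2BK120R against 8.90 and 9.04 (difference 0.38 ± 0.19, limma adjusted p = 0.758). NF1, which encodes neurofibromin, and RASA2 each differed by 0.21, with overlapping groups, and RASAL2 by -0.13.

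Downstream of RAF, 7 genes of the MEK, ERK and RSK kinases and the scaffold LAMTOR3 were measured, 5 higher and 2 lower, with a median of 0.10. MAPK3, which encodes ERK1, read 12.71 and 12.68 with H2BK120R and 12.76 and 12.81 with the vector. The groups were apart by a small amount (difference -0.09 ± 0.12, limma adjusted p = 0.904). LAMTOR3 differed by 0.44 ± 0.28 and the RSK gene RPS6KA1 by 0.21 ± 0.26, with overlapping groups. LAMTOR3 was at 0.10 when vector replicate 1 was left out and at 0.78 when vector replicate 2 was (unadjusted p = 0.0263). RPS6KA2, another RSK kinase gene, was the 1 gene of this list with an unadjusted p under 0.05, and it read low, at 4.01 and 3.02 with H2BK120R and 4.83 and 4.33 with the vector. Its difference was -1.07 ± 0.38 (SE), with a limma adjusted p of 0.722, and it ranged from -1.56 (H2BK120R replicate 1 left out) to -0.57 (H2BK120R replicate 2 left out). The unadjusted p of RPS6KA2, 0.0171 on all arrays, was 0.217 without H2BK120R replicate 2 and 0.167 without vector replicate 1.

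A further 14 ERK-induced genes were all measured, 9 higher and 5 lower with H2BK120R, with a median of 0.06. The groups were apart for 8 of them, 4 lower (FOSL1, EGR1, DUSP5 and EPHA2) and 4 higher (SPRED1, PHLDA1, IER3 and SPRED3), against 17.9% and 18.6% of all probe sets. FOSL1, which encodes the AP-1 subunit FRA1, read 10.08 and 10.28 with H2BK120R and 10.68 and 10.73 with the vector. It had the smallest p of this list (difference -0.53 ± 0.16, unadjusted p = 0.00858, limma adjusted p = 0.693), and the unadjusted p was 0.0871 without H2BK120R replicate 1. EGR1, an immediate early zinc finger factor, read 7.32 and 7.63 against 7.79 and 8.29 (difference -0.57 ± 0.26, limma adjusted p = 0.745), and its difference was -0.82 without vector replicate 1 and -0.32 without vector replicate 2.

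Other genes of the same feedback families had differences of both signs. DUSP4 and DUSP5 encode nuclear phosphatases that act on ERK, and their differences were 0.07 and -0.23 beside the -0.29 of DUSP6. SPRY1 was at 0.05, and the Sprouty-related SPRED1, an inhibitor that works with neurofibromin, was at 0.32 ± 0.18, with 9.79 and 9.92 with H2BK120R above 9.40 and 9.67 with the vector. SPRED2 was at 0.01, or -0.034 after quantile normalization and -0.01 with equal array medians, and SPRED3 at 0.28. None of these passed an adjusted or unadjusted p of 0.05 in limma on all arrays, and differences between the genes were not tested.

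A published set of 10 transcripts used to score MAPK pathway activity holds the 5 ERK-induced members and 5 further genes, PHLDA1, DUSP4, CCND1, EPHA2 and EPHA4. Of the 10, 7 were lower and 3 higher with H2BK120R, with a median of -0.09 against 0.00 for all probe sets, of which 10587 of 21448 were lower. The 7 include the 5 members, whose values are repeated here. Of the 5 further genes, EPHA2 and EPHA4 were lower and PHLDA1, CCND1 and DUSP4 higher. PHLDA1 read 14.63 and 14.80 with H2BK120R and 14.60 and 14.49 with the vector (difference 0.17 ± 0.11), and EPHA2, an ephrin receptor gene, read 10.90 and 10.80 against 11.09 and 11.00 (difference -0.20 ± 0.15). CCND1, the cyclin D1 gene, was at 0.11 and DUSP4 at 0.07, both with overlapping groups. The median of the 10 was 0.05 without vector replicate 1 and -0.17 without vector replicate 2.

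**Figure D4:**
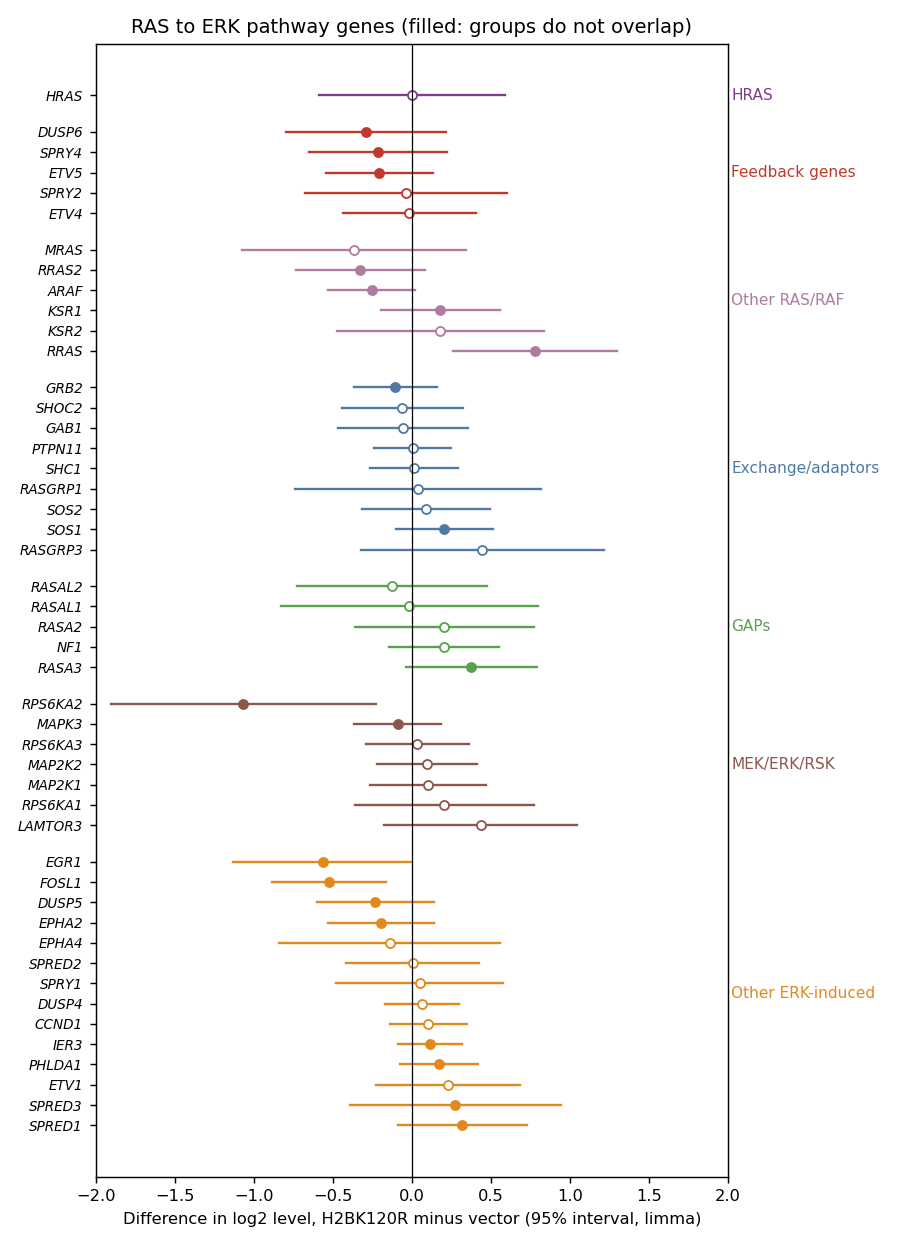
Log2 difference, H2BK120R minus vector, of the 6 measured genes and 41 other genes of the pathway, by role, with limma 95% confidence intervals from 2 arrays per group (filled circles, groups that do not overlap). The intervals of RRAS, RPS6KA2 and FOSL1 exclude 0 before adjustment, and those of the 6 genes all include it. Of all probe sets, 6.70% had an unadjusted p under 0.05 in limma.

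The number of arrays limits what these values can show. The smallest two-sided p that an exact permutation test can reach with 2 arrays a group is 0.333. The limma 95% confidence intervals of the 6 genes extended between 0.34 (ETV5) and 0.64 (SPRY2) to either side, wider than each of the differences, so a change of the measured size was not detectable and equality of the groups is not shown.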

How the data were processed

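Total RNA of 4 samples was labelled with biotin and hybridised to a whole-transcript array, per the labels' protocols. The authors deposited 1 log2 value per probe set and array, normalized between arrays; their range, 1.56 to 19.15, is the basis for taking 2 as the base, and their near-equal medians for the normalization. A wrong base would rescale every difference. The submitters' processing notes name MAS5, with no version; background correction and probe summary were not given in the sources used here. Of 21448 probe sets, 17709 had 1 gene symbol in GEO's platform annotation. Groups were compared in R 4.3.3 with limma 3.58.1 (two-sided, no covariate, eBayes with trend), adjusted by Benjamini-Hochberg over all probe sets, and the fit was tested on simulated data. Tables and figures used Python 3.11.15 and matplotlib 3.10.9. The members, lists and tests were chosen with earlier results of these data known. Named were all measured members, the 4 genes of each pathway list with the smallest unadjusted p, and the 3 genes most like the member with the smallest p; other list genes were named after their values were seen. Alternatives were other normalizations, filters, variance priors, a replicate block, averaged probe sets and leaving out each array; a pseudocount does not apply to log2 values.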

Additional observations from a re-analysis of the deposited data

How the results depend on the processing

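Under every alternative, 0 of the 6 members (5 with the dimmest 50% left out, which removed SPRY2) passed an adjusted or an unadjusted p of 0.05 in limma, and 0 probe sets passed an adjusted p of 0.05, against 1437 at an unadjusted p under 0.05. With 1 array left out, the difference ranged from -0.37 to -0.21 for DUSP6 and from -0.28 to -0.16 for SPRY4. It ranged from -0.32 to -0.09 for ETV5, from -0.26 to 0.18 for SPRY2 and from -0.14 to 0.11 for ETV4. The signs of SPRY2 and ETV4 thus rest on single arrays. HRAS, with a difference of 0.00 on all arrays, ranged from -0.27 to 0.27. The ERK-induced mean minus HRAS ranged from -0.47 to 0.16, and the median of the 5 ERK-induced genes from -0.28 to -0.14.

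Over all probe sets, the number with an unadjusted p under 0.05 was 903 once the dimmest 50% were removed. Fewer probe sets were tested there, but the number fell by less than in proportion, and the reason was not tested. With 1 array left out, the number over all probe sets lay between 495 and 2427. The replicate numbers occur in both groups, but with 2 pairs they are not shown to pair the arrays (correlation of deviations 0.14). With the replicate block the differences of the members stayed as they were, and the lowest limma adjusted p was 0.672 (ETV5). Among the lists, 2 other RAS or RAF genes and 2 other ERK-induced genes had an unadjusted p under 0.05, in place of 1 each. The count over all probe sets rose as well, from 1437 to 1846.

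In the lists, quantile normalization gave 2 such genes for other RAS and RAF genes and 2 for other ERK-induced genes, as did equal array medians and testing only probe sets with 1 symbol for the latter. Over all probe sets these settings gave 1458, 1405 and 1146, in that order, with fewer probe sets tested in the last. With the dimmest 25% or 50% left out, 0 genes of the kinase list had such a p, since RPS6KA2 was filtered. The kinase median was 0.049 after quantile normalization and 0.08 with equal medians, that of other ERK-induced genes 0.046 and 0.043, and that of other RAS and RAF genes -0.26 with the dimmest 50% left out. With 1 array left out, list medians ranged from -0.10 to 0.09 (other RAS and RAF), -0.06 to 0.13 (exchange factors), 0.03 to 0.31 (GTPase-activating proteins), -0.035 to 0.23 (kinases), -0.018 to 0.12 (other ERK-induced) and -0.17 to 0.053 (activity score), and counts at an unadjusted p under 0.05 from 0 to 1 (other RAS and RAF, and GTPase-activating proteins) or 0 to 2 (kinases, and other ERK-induced). Of 30 pathway genes named beside the members, 25 changed sign or moved by over 1.5 times without 1 array, and 10 changed sign: MRAS ranged from -0.77 to 0.035, SOS2 from -0.06 to 0.24, RASA2 from -0.015 to 0.43, RASAL2 from -0.56 to 0.31, RPS6KA1 from -0.045 to 0.46, ETV1 from -0.01 to 0.47, DUSP4 from -0.025 to 0.16, EPHA4 from -0.41 to 0.13, SPRY1 from -0.24 to 0.34 and SPRED2 from -0.23 to 0.24. SPRED2 was also at -0.034 after quantile normalization and at -0.01 with equal medians. Beyond filtering and fewer arrays, the cause was not tested. A lone array of a group was assumed to vary like the other group.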
